A study of Homo sapiens with 9 samples.

Results

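The comparison described here sets the first of 2 SKP2 siRNAs against a nontargeting control siRNA in MDA-MB-231 cells, a human cell line from a triple-negative breast cancer. Its members are the 3 libraries titled SKP2-1, called SKP2-siRNA1 below, and the 3 libraries titled NC, which make 6 of the 9 libraries of the series. The other 3, from a second siRNA to the same gene and called SKP2-siRNA2, share the estimate of the spread in the fit and are otherwise used only where the siRNAs are set side by side. All groups share the cell line, the medium with fetal bovine serum, the reverse transfection, in which cells are plated onto the siRNA complexes, and the harvest 96 h later. They differ only in the siRNA, whose sequence is not given in the sources used here. Per the sample labels the target is SKP2, but the series' design text speaks of ZIP7, the zinc transporter encoded by SLC39A7, so the levels of both genes open the results. The values are read counts per Ensembl gene from total RNA, and levels are given in CPM, a gene's counts relative to the scaled total of its library.

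SKP2 is the F-box subunit of an SCF ubiquitin ligase, a cullin-based complex that attaches ubiquitin to proteins and so marks them for the proteasome. The F-box subunit chooses the substrate, and SKP2 is best known for the turnover of the cyclin-dependent kinase inhibitor p27, which lets cells leave G1. Ligase substrates are controlled as proteins, so their transcripts need not follow the ligase. An siRNA guides the Argonaute complex to a matching transcript, which is cut. Its seed, the first bases of the guide, can also lower other transcripts whose 3′ untranslated region (3′UTR) holds the complementary word, in the manner of a microRNA.

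SKP2 (ENSG00000145604, chromosome 5, 36151989 to 36184319) was the most strongly lowered of the genes named here. Its level was 57.5, 63.8 and 64.8 CPM in the controls and 3.51, 3.31 and 3.91 in the knockdown libraries (log2 fold change -4.11 with SE 0.08, adjusted p = 8.64e-12). All 3 knockdown libraries lay far below all 3 control libraries and close to each other. SLC39A7 (ENSG00000112473, chromosome 6, 33200445 to 33204439) was 339, 351 and 335 CPM in the controls and 344, 342 and 343 in the knockdown libraries, and the groups overlapped (log2 fold change 0.00, adjusted p = 0.936).

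Gene counts per library ranged from 35.5 to 49.9 M. The knockdown libraries were the more alike: the median SD of a gene's log2(CPM + 1) was 0.049 among them and 0.098 among the controls, where NC replicate 1 stood apart from replicates 2 and 3. Whether the replicates are separate cultures is not stated in the labels, so the p-values reflect the spread of these libraries alone, part of which may be technical. Markers of this basal-like, mesenchymal line summed to 10093 to 10533 CPM in NC and to 10404 to 10537 CPM with SKP2-siRNA1. The 21 luminal breast markers summed to 1281 to 1563 CPM in NC and 1366 to 1370 CPM with SKP2-siRNA1, much of it from the keratins KRT8, KRT18, KRT19 and KRT7, while ESR1 was below 0.1 CPM in all 6 libraries and AGR3 had no count in any of them. Of 18 immune cell markers, 14 were below 1 CPM in all 6 libraries, and CD2, MS4A1, FCGR3A, NKG7 and TYROBP had no count.

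Of 16575 genes tested, 7548 (45.5%) passed edgeR's quasi-likelihood test at an adjusted p below 0.05. Of these 16575 genes, 25% were higher with SKP2-siRNA1 (4150 genes) and 20.5% were lower (3398 genes), and these 2 shares are the background for every gene list below. When the fit held only the 2 groups compared, 3341 genes were higher and 4255 lower, so that 44% of the calls were higher instead of 55%. Without NC replicate 1, the numbers were 4096 and 4023. The median absolute log2 fold change among passing genes was 0.43, and most called changes were therefore small. A change of at least 2-fold was called for 5.91% of the genes, 494 higher (2.98%) and 486 lower (2.93%). With a filter of at least 1 CPM in 3 libraries, the higher number was 278. The 3 libraries of one group did not overlap with those of the other for 54.8% of the genes. By the same test, 10 of the 18 luminal markers tested were higher and 3 lower, with AGR2, a secretory-pathway protein of luminal tumours, at 17.3, 19.9 and 20.9 CPM in the controls and 48.4, 48.4 and 52.2 in the knockdown libraries (1.36) and KRT7 lower (-1.04). The part of these markers in the results below was not tested.

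Genes of the cell cycle accounted for a large part of the strongest falls and for almost none of the rises. Of 371 tested genes on a list of replication, mitosis and histone genes, 339 were lower and 7 higher, with a median log2 fold change of -1.04 against 0.02 over all genes tested. The 7 became 4 in the fit of the 2 groups alone and when any 1 of the SKP2-siRNA1 libraries was left out. The list held 189 of the 486 genes lower by 2-fold or more and 1 of the 494 genes higher by that much. The other 297 falls and 493 rises, and the gene families they belong to, are the subject of what follows. In RNA from whole cultures, fewer cells of a kind and less RNA per cell cannot be told apart.

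**Figure D1:**
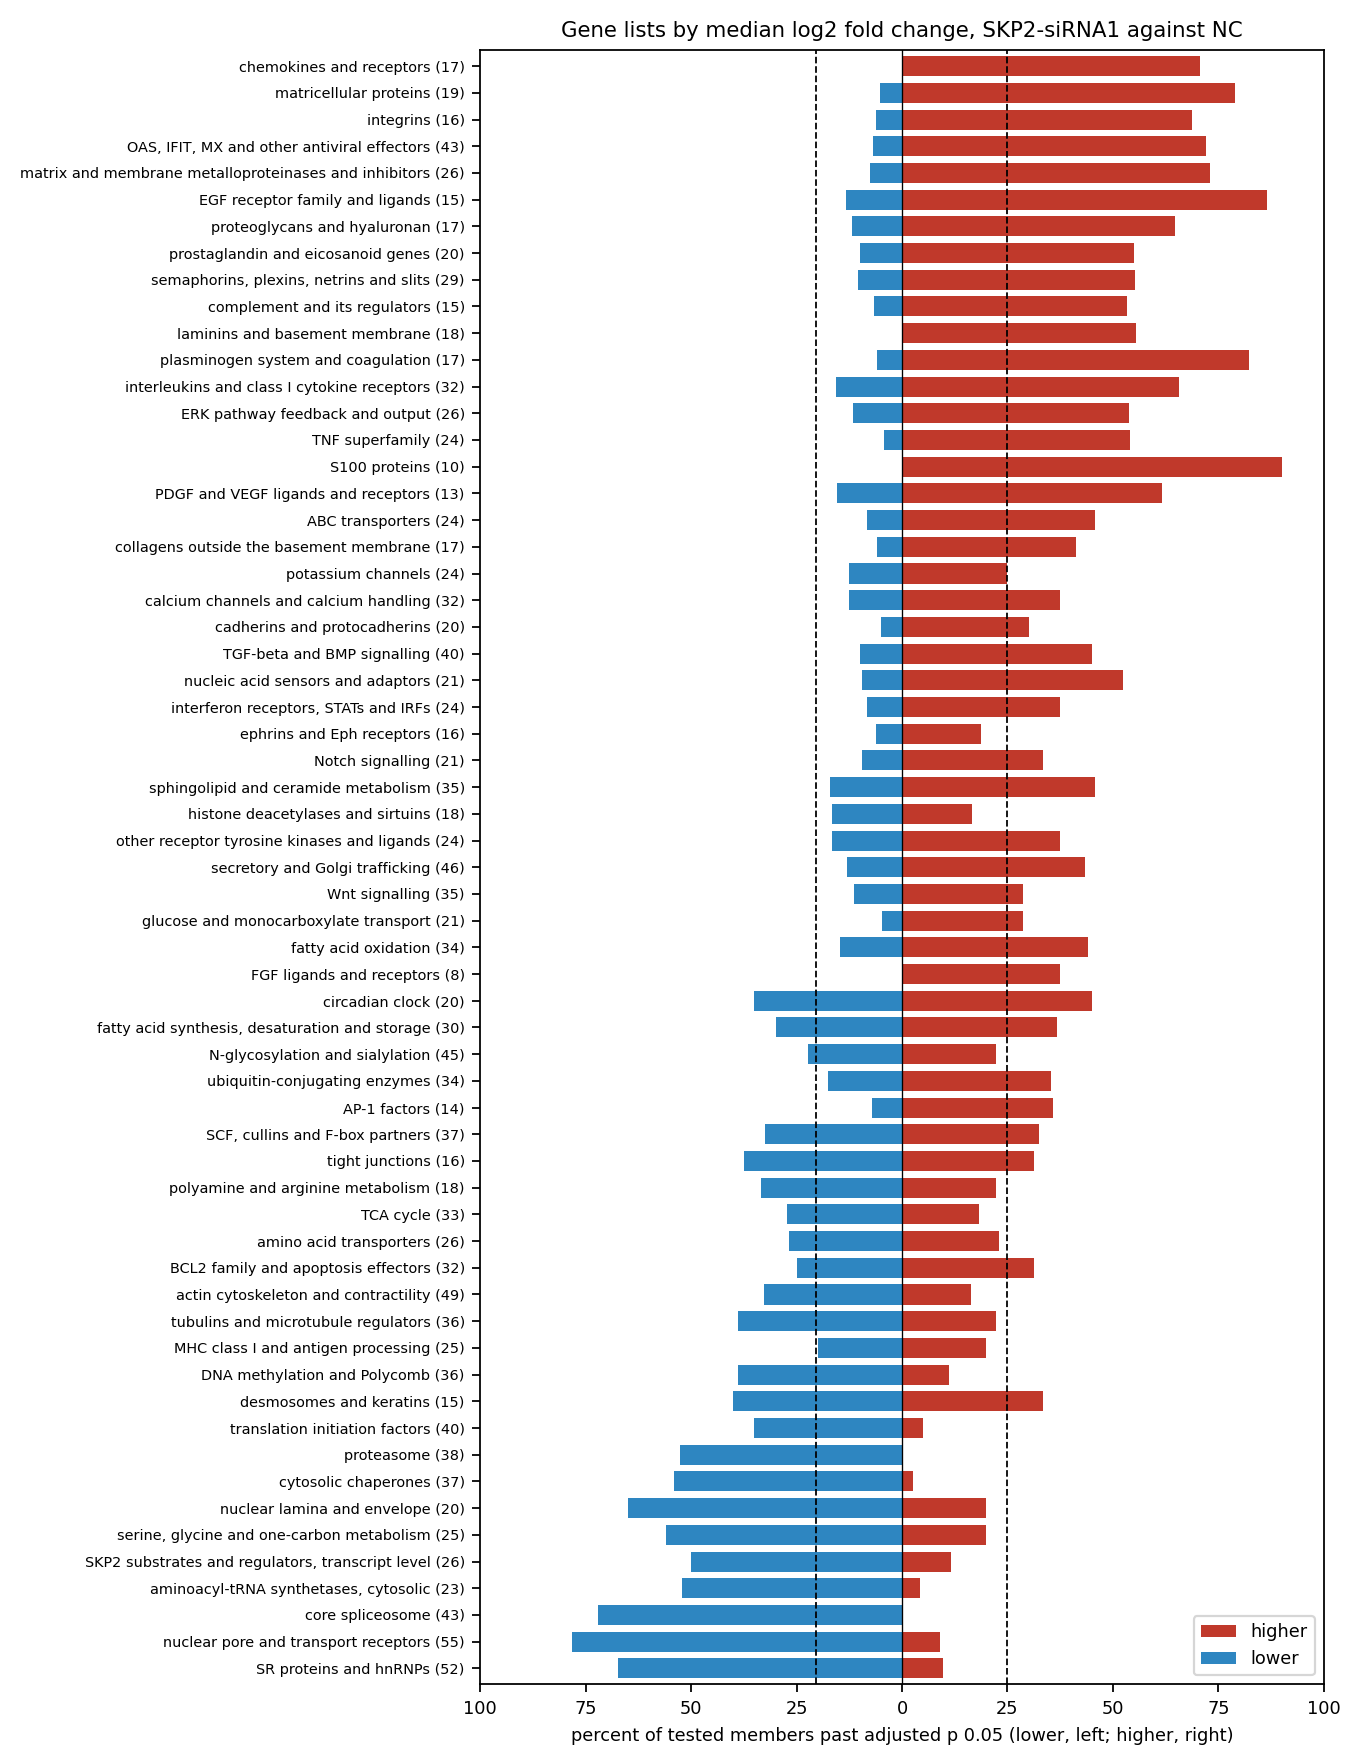
Share of the tested members of the gene lists, leaving out marker and cell cycle lists, that were higher (to the right) or lower (to the left) with SKP2-siRNA1 than with NC, in percent, ordered by the median log2 fold change. The dashed lines mark the shares over all genes tested, 25% higher and 20.5% lower; matricellular proteins, chemokines and integrins stand at one end and splicing and nuclear pore genes at the other.

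Among the 15 largest rises outside the cell cycle were a nuclear receptor, a collagenase, several cytokines and a morphogen. A number alone in parentheses after a gene, here and below, is its log2 fold change of SKP2-siRNA1 against NC. ESR2 (ENSG00000140009, chromosome 14, 64084232 to 64338112), which encodes estrogen receptor beta, was 0.871, 0.619 and 0.761 CPM in the controls and 5.66, 5.59 and 5.33 in the knockdown libraries (log2 fold change 2.89 with SE 0.13, adjusted p = 1.39e-09). MMP1 (ENSG00000196611, chromosome 11, 102789920 to 102798160), the interstitial collagenase that opens fibrillar collagen, was 18.9, 19.9 and 22.9 CPM in the controls and 130.1, 121 and 132 in the knockdown libraries (log2 fold change 2.63 with SE 0.07, adjusted p = 4.47e-11). IL1B (ENSG00000125538, chromosome 2, 112829751 to 112836903), the precursor of the inflammatory cytokine interleukin-1 beta, was 2.87, 3.31 and 3.28 CPM in the controls and 16.8, 18.2 and 21.3 in the knockdown libraries (log2 fold change 2.57 with SE 0.13, adjusted p = 3.86e-09). In each of the 3 genes every SKP2-siRNA1 library exceeded every control library several times over.

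SLC14A1 (ENSG00000141469, chromosome 18, 45687025 to 45752520), a urea transporter, was 5.34, 6.19 and 6.01 CPM in the controls and 41.3, 43.2 and 43.7 in the knockdown libraries, a log2 fold change of 2.87. SERPIND1 (ENSG00000099937, chromosome 22, 20773879 to 20787720), the thrombin inhibitor heparin cofactor II, was 1.32, 1.86 and 2.28 CPM in the controls and 9.64, 10.8 and 10.4 in the knockdown libraries (log2 fold change 2.48). CH25H (ENSG00000138135, chromosome 10, 89205629 to 89207314), the enzyme that makes 25-hydroxycholesterol, an antiviral sterol, was 0.702, 1.13 and 0.825 CPM in the controls and 4.6, 5.36 and 4.84 in the knockdown libraries (log2 fold change 2.46). All 3 genes started at a few CPM or less and rose at least 5-fold, as the fitted folds of 7.29, 5.57 and 5.5 state.

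CCN3 (ENSG00000136999, chromosome 8, 119416306 to 119424353), a matrix protein that signals to cells through integrins, was 10.8, 11.4 and 10.9 CPM in the controls and 55.5, 53.6 and 52.2 in the knockdown libraries (log2 fold change 2.28). CX3CL1 (ENSG00000006210, chromosome 16, 57372458 to 57385048), the membrane-anchored chemokine fractalkine, was 7.92, 6.92 and 7.76 CPM in the controls and 31.5, 37.03 and 35.1 in the knockdown libraries (log2 fold change 2.20). SHH (ENSG00000164690, chromosome 7, 155799986 to 155812273), the Hedgehog ligand, was 1.1, 0.84 and 0.74 CPM in the controls and 3.91, 3.89 and 3.57 in the knockdown libraries (log2 fold change 2.10). In all 3 the control libraries were close to each other and well below the knockdown libraries.

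The remaining 6 rises were AK5, an adenylate kinase (log2 fold change 2.11), MUC5AC, a gel-forming airway and stomach mucin (2.10), RAB3B, a small GTPase of regulated secretion (2.05), RASD1, a Ras-like protein induced by glucocorticoids (2.01), IL24, a cytokine of the interleukin-10 family (1.94), and TNFSF15 (2.10). Their adjusted p-values were 4.31e-08, 1.94e-08, 7.21e-07, 4.37e-05, 3.96e-08 and 6.14e-11. None of these 15 genes overlapped between the groups, which was part of the rule that chose them.

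**Figure D2:**
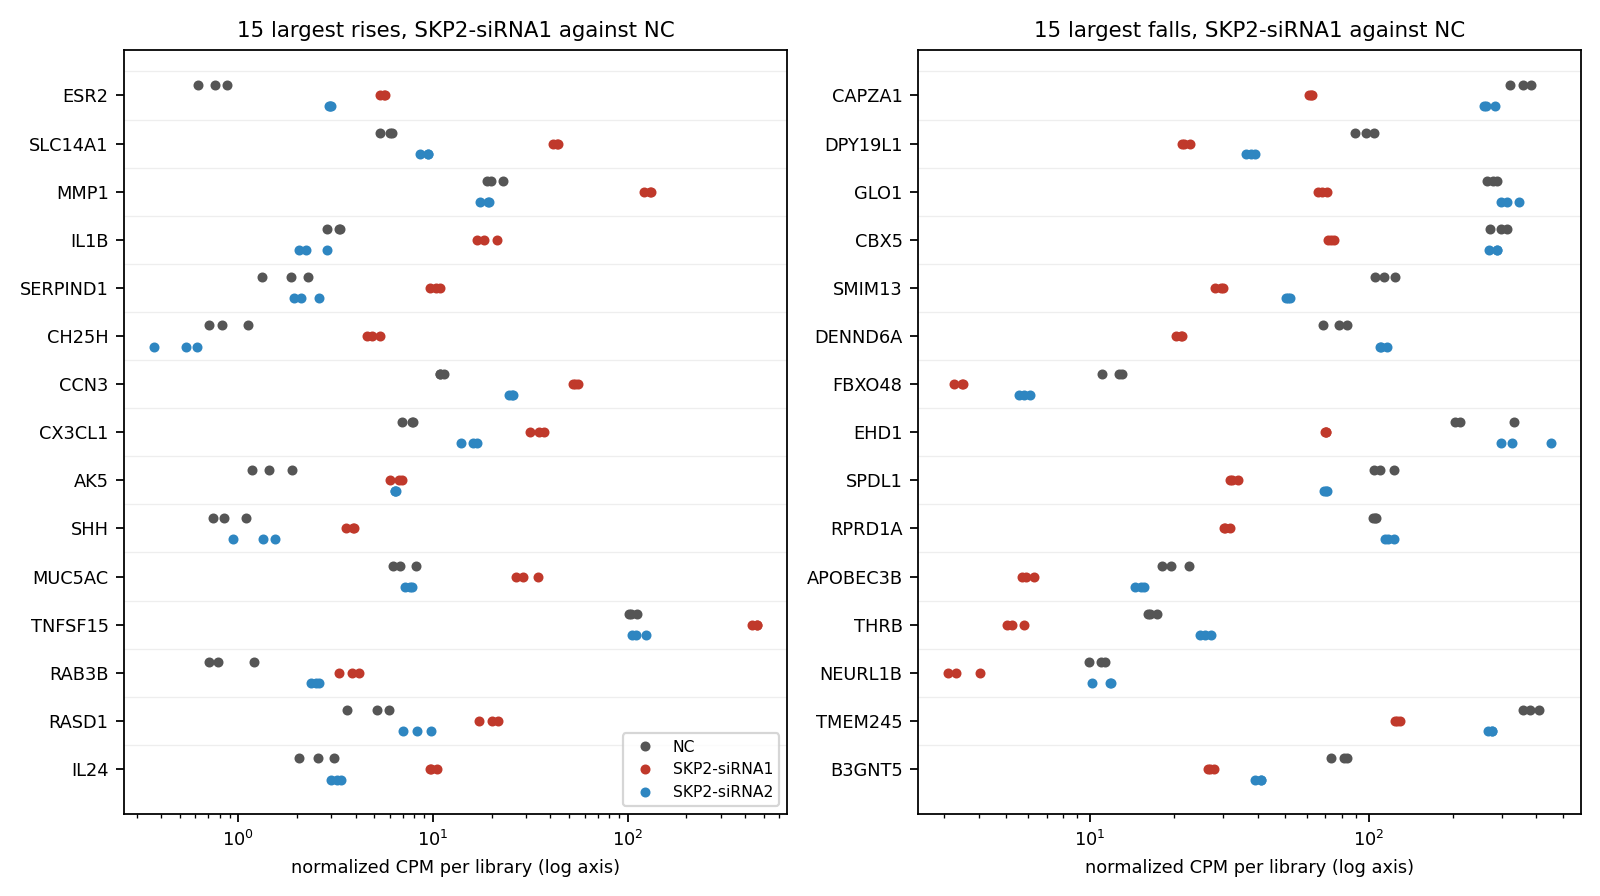
Normalized CPM on a log axis in each of the 9 libraries for the 15 largest rises and the 15 largest falls outside the cell cycle list; each point is 1 library. The SKP2-siRNA1 points of the rises sit to the right of the control points and those of the falls to the left, from ESR2 (log2 fold change 2.89) to CAPZA1 (-2.52).

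The largest falls were in genes of varied function, from the actin cytoskeleton to chromatin. CAPZA1 (ENSG00000116489, chromosome 1, 112619173 to 112671619), the alpha subunit of the protein that caps the fast-growing ends of actin filaments, was 322, 359 and 381 CPM in the controls and 62.8, 62.2 and 60.9 in the knockdown libraries (log2 fold change -2.52 with SE 0.06, adjusted p = 3.21e-11). GLO1 (ENSG00000124767, chromosome 6, 38675925 to 38703141), glyoxalase I, which clears the toxic by-product methylglyoxal, was 288, 265 and 278 CPM in the controls and 70.7, 67.9 and 65.9 in the knockdown libraries (log2 fold change -2.02 with SE 0.06, adjusted p = 5.96e-11). CBX5 (ENSG00000094916, chromosome 12, 54230940 to 54280133), heterochromatin protein 1 alpha, which binds methylated histone H3, was 272, 299 and 315 CPM in the controls and 73.2, 74.9 and 71.5 in the knockdown libraries (log2 fold change -2.01 with SE 0.06, adjusted p = 4.93e-11). Each fell to about the same low level in all 3 knockdown libraries, and the spread within a group was small beside the change.

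DPY19L1 (ENSG00000173852, chromosome 7, 34928876 to 35038271), a C-mannosyltransferase of the endoplasmic reticulum, was 89.2, 97.6 and 104 CPM in the controls and 22.9, 21.8 and 21.4 in the knockdown libraries (log2 fold change -2.14). EHD1 (ENSG00000110047, chromosome 11, 64851642 to 64888296), an ATPase of endocytic recycling, was 332, 213 and 204 CPM in the controls and 70.4, 69.9 and 70.6 in the knockdown libraries (log2 fold change -1.83, adjusted p = 0.000889). For EHD1, NC replicate 1 was the highest of the controls, and without that library the log2 fold change was -1.58. THRB (ENSG00000151090, chromosome 3, 24117153 to 24495756), thyroid hormone receptor beta, was 16.5, 16.2 and 17.5 CPM in the controls and 5.82, 5.02 and 5.25 in the knockdown libraries (log2 fold change -1.64).

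The others were SMIM13, a small membrane protein (-1.97), DENND6A, an exchange factor for a Rab GTPase (-1.87), FBXO48, an F-box protein like SKP2 (-1.85), SPDL1, which brings dynein to kinetochores (-1.78), and RPRD1A, which binds the tail of RNA polymerase II (-1.77). APOBEC3B, a cytidine deaminase that edits DNA (-1.76), NEURL1B, a ubiquitin ligase of Notch ligands (-1.62), TMEM245, a membrane protein (-1.59), and B3GNT5, which starts lacto-series glycolipids (-1.55), completed the 15. Their adjusted p-values ran from 3.51e-11 for RPRD1A to 7.09e-08 for NEURL1B. APOBEC3B has near-identical sister genes, so how its reads were divided is uncertain.

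Most of the largest falls had a short word in common in their 3′UTRs. Over 11269 protein-coding genes with a mean of at least 2 CPM and a GENCODE 29 3′UTR, all 15839 heptamers found in at least 100 of these genes were ranked by the difference in mean log2 fold change between genes with and without them, divided by its standard error, with 1 for the most negative. AAGTGAT ranked 1 and AGTGATA ranked 2, and together they form the octamer AAGTGATA. The words were found in the same contrast that they describe, so the values are a description with no test. Of the 15 largest falls, 13 held at least 1 of the heptamers, 7 the octamer and 15 the shared hexamer AGTGAT, against 25.4%, 4.44% and 38.7% of all 11269 genes. Of the 14 largest rises with a 3′UTR of that kind, 2 held a heptamer. The octamer or heptamer is shown in capitals below, with 11 bases on each side, in 8 of the falls, 5′ to 3′ on the transcript strand, with GRCh38 coordinates from GENCODE 29.
CAPZA1 chr1:112670188-112670216 (+): atatgataaatAAGTGATttataaacaag
DPY19L1 chr7:34928959-34928988 (-): tatcaggaataAAGTGATAttgcataggag
GLO1 chr6:38676756-38676784 (-): actgatagaaaAAGTGATttcttcttatt
CBX5 chr12:54241017-54241046 (-): ctgcttctgtaAAGTGATAtcaatttgtga
EHD1 chr11:64853609-64853638 (-): tctgttctgtaAAGTGATAtctttcatact
RPRD1A chr18:35990955-35990984 (-): agatttgtgatAAGTGATAgtactcaaaaa
THRB chr3:24118412-24118441 (-): caaacagtgttAAGTGATAttgctagatgg
TMEM245 chr9:109018128-109018157 (-): ttagctgtataAAGTGATAttgcaaaaaac
The capitals are common to the 8 sites, and some neighbouring bases recur in a few of them.

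Genes with either heptamer had lower medians than genes without, and those with the octamer the lowest. With the hexamer alone the median was not below that with none of the words over all 3′UTR lengths. It was slightly below it among 3′UTRs of 2000 to 4000 bases. The median log2 fold change was 0.03 in the 6908 genes with none of the words, 0.04 in the 1502 with the hexamer alone, -0.04 in the 570 with AGTGATA, -0.05 in the 1789 with AAGTGAT and -0.14 in the 500 with the octamer. Long 3′UTRs hold more words of any kind, and the median length rose from 869 bases with none to 3686 bases with the octamer. Among 3′UTRs of 2000 to 4000 bases the medians were 0.09, 0.07, -0.03, -0.07 and -0.19 in the same order. The share of genes lower by 2-fold or more was 2.23%, 1.86%, 3.86%, 4.42% and 9.40% in that order, and outside the cell cycle list 0.33%, 0.954%, 1.99%, 3.27% and 8.35%. With SKP2-siRNA2, compared with the same controls, 3.55% of all tested genes were lower by 2-fold or more. There the shares were 2.84%, 3.73%, 4.39%, 5.20% and 5.40%, the medians were 0.05, 0.03, -0.06, -0.04 and -0.03, and the heptamers ranked 645 and 782. The mean log2 fold change of genes with AAGTGAT lay below that of genes without by a difference of -0.14 with SKP2-siRNA1 and -0.11 with SKP2-siRNA2. For AGTGATA the differences were -0.15 and -0.13. Between the siRNAs directly the differences were only -0.03 for each heptamer (ranks 541 and 790), and the medians of SKP2-siRNA1 minus SKP2-siRNA2, -0.04, -0.01, 0.02, -0.02 and -0.08 from none of the words to the octamer, were not in order of word length. Among 3′UTRs of 2000 to 4000 bases the medians of SKP2-siRNA1 minus SKP2-siRNA2 were 0.04, -0.002, 0.01, -0.04 and -0.11. With SKP2-siRNA2 against NC the medians in that window were 0.03, 0.03, -0.01, -0.02 and -0.05. Lower values in genes with the heptamers were thus seen with both siRNAs against the shared controls. In that window the medians lay closer together with SKP2-siRNA2 than with SKP2-siRNA1. No mature microRNA among 2545 in the RefSeq table had bases 2 to 8 complementary to AAGTGAT. Whether the word is complementary to the seed of SKP2-siRNA1 was not tested.

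**Figure D3:**
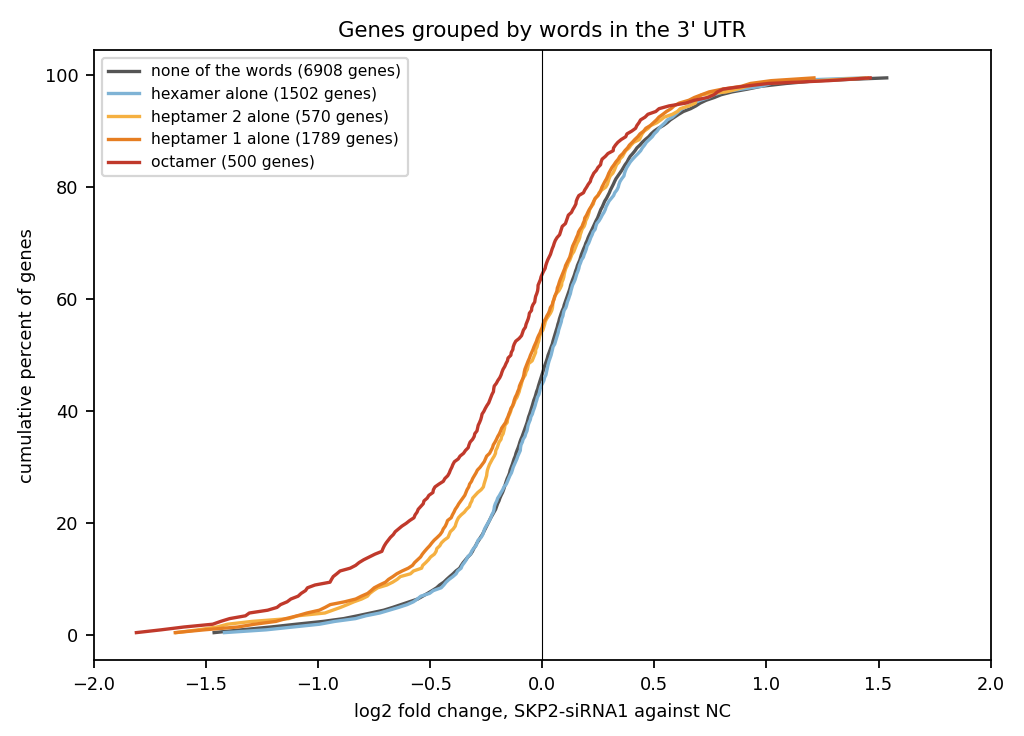
Cumulative share of genes (vertical axis, percent) against the log2 fold change of SKP2-siRNA1 against NC (horizontal axis), for genes grouped by the longest of the words in their 3′UTR. The curve of the 500 genes with the octamer lies farthest to the left (median -0.14) and that of the 6908 genes with none of the words near the middle (median 0.03).

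A few changes stood out by abundance. Of passing genes changed at least 1.5-fold, those with the highest CPM that rose were S100A6, a calcium-binding protein (from 1709 ± 102 to 2779 ± 69.02 CPM), FN1, fibronectin (from 717 ± 20.3 to 1252 ± 70.3 CPM), and CD44, the hyaluronan receptor (from 763 ± 31.9 to 1169.5 ± 31.9 CPM). They also included ITGA2, the collagen-binding integrin alpha-2 (from 619 ± 46.5 to 1066 ± 14.96 CPM), MMP14, the membrane-bound collagenase (from 839 ± 62.9 to 1590.2 ± 20.5 CPM), and TIMP3, an inhibitor of such proteases (from 687 ± 29.2 to 1031 ± 7.43 CPM). Those that fell were MYH9, the heavy chain of non-muscle myosin IIA (from 2648 ± 261 to 1576 ± 38.6 CPM), TUBA1B, an alpha-tubulin (from 1469 ± 109 to 904 ± 11.8 CPM), AXL, a receptor tyrosine kinase (from 1397 ± 15.04 to 630.1 ± 2.74 CPM), NUCKS1, a nuclear phosphoprotein (from 1357 ± 122 to 607 ± 9.21 CPM), NCL, nucleolin (from 1019 ± 57.9 to 524 ± 6.16 CPM), and CALM3, a calmodulin (from 577 ± 8.86 to 378 ± 8.83 CPM). These values are means ± SD of 3 libraries. TUBA1B shares long stretches with other alpha-tubulin genes, so its counts are uncertain. The families of matrix and adhesion genes are taken next.

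Cells hold the extracellular matrix through integrins, pairs of an alpha and a beta chain, which bind laminins, collagens and fibronectin. Of 16 integrin genes tested, 11 rose and 1 fell (median log2 fold change 0.59). ITGA6, the laminin-binding alpha-6 chain, was 538, 602 and 618 CPM in the controls and 997, 996 and 1006 in the knockdown libraries (log2 fold change 0.77 with SE 0.05, adjusted p = 7.20e-08). ITGA2 was 566, 637 and 653 CPM in the controls and 1054, 1061 and 1082 in the knockdown libraries (log2 fold change 0.78). ITGA1, another collagen-binding alpha chain, was 57.1, 59.7 and 63.9 CPM in the controls and 99.3, 100.8 and 103 in the knockdown libraries (0.74). For all 3 chains the groups were far apart and the knockdown libraries nearly equal.

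The rises also took in ITGB8, which activates latent TGF-beta (0.83), ITGA5, the fibronectin receptor chain (0.48), and the leukocyte chain ITGB7 (1.87), which stayed under 2 CPM. The integrin that fell was ITGB1, the common beta-1 chain with which ITGA1, ITGA2, ITGA5 and ITGA6 pair: it was 1402, 1473 and 1527 CPM in the controls and 1161, 1156 and 1159 in the knockdown libraries (log2 fold change -0.34 with SE 0.05, adjusted p = 3.86e-05). Alpha chains and their shared beta chain therefore moved in opposite directions.

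Laminins and collagen IV form the basement membrane under epithelia. Of 18 such genes, 10 rose and none fell (median 0.38). LAMC1, the gamma-1 chain found in most laminins, was 469, 508 and 528 CPM in the controls and 848, 866 and 879 in the knockdown libraries (log2 fold change 0.79 with SE 0.05, adjusted p = 5.89e-08). COL4A5, a collagen IV chain, was 36.6, 40.4 and 41.9 CPM in the controls and 67.4, 70.1 and 68.7 in the knockdown libraries (0.79), and LAMA3, a chain of laminin-332, rose as well (0.56). COL4A6 (1.36), LAMA4 (1.65) and LAMA1 (1.77) had the largest log2 fold changes but started near or below 2 CPM. Of 17 other collagens, 7 rose, among them COL17A1 of hemidesmosomes (0.69), COL12A1 (0.28) and COL6A3 (0.39). COL15A1 was the 1 collagen called lower, and leaving out any 1 of the NC or SKP2-siRNA1 libraries ended that call.

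Matricellular proteins sit in the matrix and regulate cells more than they bear load. The list of that name also held proteins of matrix fibrils, such as FBN1 and LTBP1. Of its 19 tested genes, 15 rose and 1 fell, with the highest median of these matrix lists (0.74). FBN1, fibrillin-1 of elastic microfibrils, was 75.7, 74.5 and 75.2 CPM in the controls and 233, 238 and 230.2 in the knockdown libraries (log2 fold change 1.64 with SE 0.04, adjusted p = 3.51e-11). LTBP1, which stores latent TGF-beta on fibrillin, was 103, 117 and 117 CPM in the controls and 217, 221 and 227 in the knockdown libraries (0.98), and MATN2, matrilin-2, was 20.7, 21.3 and 25.3 CPM in the controls and 48.8, 48.2 and 46.7 in the knockdown libraries (1.09). The member that fell was CCN1, an immediate-early gene of the family to which CCN3 belongs, at 794, 839 and 889 CPM in the controls and 623, 585 and 566 in the knockdown libraries (log2 fold change -0.51 with SE 0.05, adjusted p = 4.06e-06). In the fit of the 2 groups alone, 2 members were lower.

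Of 26 matrix and membrane metalloproteinases and their inhibitors, 19 rose and 2 fell (median 0.50), and 1 was lower without SKP2-siRNA1 replicate 2. After MMP1, the clearest were MMP14, at 891, 856 and 769 CPM in the controls and 1566, 1602 and 1602 in the knockdown libraries (log2 fold change 0.92 with SE 0.06, adjusted p = 6.08e-08), and ADAMTS1, a secreted protease that cuts aggrecan and versican, at 66.7, 63.98 and 65.4 CPM in the controls and 100.8, 99.9 and 97.04 in the knockdown libraries (0.60). The inhibitors rose too: TIMP1 was 176, 195 and 206 CPM in the controls and 316, 325 and 343 in the knockdown libraries (0.77), and TIMP3 rose by 0.59 on the log2 scale. ADAMTS12 fell (-0.36).

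Of 17 genes of proteoglycans and hyaluronan, 11 rose and 2 fell (median 0.46). Both hyaluronan synthases tested rose (HAS1 did not pass the count filter), HAS2 from 47.3, 53.5 and 59.1 CPM to 116, 121 and 130.0 CPM (1.20) and HAS3 from 5.28, 5.79 and 4.99 CPM to 19.2, 20.4 and 20.3 CPM (1.90). CEMIP, which binds hyaluronan and is needed for its breakdown, was 88.7, 90.6 and 88.2 CPM in the controls and 261, 265 and 267 in the knockdown libraries (log2 fold change 1.57 with SE 0.04, adjusted p = 3.21e-11). The genes of synthesis, breakdown and the receptor CD44 thus moved in the same direction. TGFBR3, betaglycan, rose too (1.22). SDC1, syndecan-1 of epithelial cells, went the other way, at 102, 86.5 and 71.3 CPM in the controls and 33.4, 32.7 and 32.3 in the knockdown libraries (log2 fold change -1.40 with SE 0.14, adjusted p = 9.88e-05). Of 12 fibroblast markers, which overlap in kind with these genes, 7 were below 1 CPM in all 6 libraries and PDPN had no count. The 12 summed to 27.7 to 42.8 CPM in NC and 29.5 to 32.0 CPM with SKP2-siRNA1, most of it COL1A1, at 31.6, 20.6 and 18.4 CPM in the controls and 16.6, 16.8 and 14.7 in the knockdown libraries (adjusted p = 0.143). Of the 5 tested, 3 were higher and none lower (median 0.47), with PI16 at 1.49, 1.59 and 1.71 CPM in the controls and 2.88, 2.87 and 3.32 in the knockdown libraries (0.92). Their part in the matrix results was not tested.

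Epithelial junction genes did not share a direction. Of 16 tight junction genes, 5 rose and 6 fell (median 0.03). CLDN1 (1.00) and CLDN2 (0.94), claudins that seal or open the junction, rose, while OCLN, occludin, fell from 24.6, 23.9 and 26.1 CPM to 16.3, 15.6 and 14.5 CPM (-0.68). Among 15 desmosome and keratin genes, 5 rose, a number that was 3 without SKP2-siRNA1 replicate 2, and 6 fell (median -0.10). KRT7, a keratin of simple epithelia, was 354, 309 and 276 CPM in the controls and 154, 154 and 148 in the knockdown libraries (log2 fold change -1.04 with SE 0.09, adjusted p = 8.72e-06), and KRT80 fell as well (-0.76). DSC2, a desmosomal cadherin (0.78), and KRT19 (0.56) rose. Of 20 cadherins, 6 rose, among them the mesenchymal CDH11 (0.87) and CDH2 (0.89), and the epithelial CDH1 fell (-0.61, 10.8, 12.8 and 13.6 CPM in the controls and 7.47, 8.74 and 8.22 in the knockdown libraries).

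Cell-surface proteolysis and clotting share the plasminogen system, in which PLAT and PLAU activate plasminogen and serpins restrain them. Of 17 genes, 14 rose and 1 fell (median 0.37). PLAT, tissue plasminogen activator, was 294, 305 and 277 CPM in the controls and 1030.0, 1045 and 1000.4 in the knockdown libraries (log2 fold change 1.81 with SE 0.05, adjusted p = 3.53e-11). PLAU, urokinase, was the member that fell, at 486, 507 and 542 CPM in the controls and 361, 363 and 358 in the knockdown libraries (log2 fold change -0.50 with SE 0.05, adjusted p = 1.45e-06), whereas its receptor PLAUR rose, at 88.4, 75.6 and 75.8 CPM in the controls and 148, 155 and 155 in the knockdown libraries (0.94). The 2 activators and the receptor of the second therefore did not move together.

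The inhibitors SERPINE2, protease nexin-1 (20.8, 21.5 and 22.9 CPM in the controls and 48.6, 49.99 and 49.7 in the knockdown libraries, log2 fold change 1.18), and TFPI2 (1.08) rose, as did THBD, thrombomodulin, which turns thrombin toward anticoagulation (54.02, 54.0 and 50.9 CPM in the controls and 121, 123 and 123 in the knockdown libraries, 1.21). Of 15 complement genes, 8 rose (median 0.41). CD55, which dissociates the C3 convertase on the cell's own surface, was 175, 188 and 196 CPM in the controls and 368, 362 and 362 in the knockdown libraries (log2 fold change 0.97 with SE 0.05, adjusted p = 3.09e-09). C3 itself was 33.1, 34.5 and 34.5 CPM in the controls and 61.3, 61.96 and 63.8 in the knockdown libraries (0.87), and the regulator CD46 (0.52) rose as well. In both lists the control and knockdown libraries of the genes given did not overlap. C5, the complement member called lower, lost the call in several alternatives, among them without NC replicate 2.

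Interferon-stimulated genes encode proteins that block viral replication and are switched on when STAT and IRF factors bind a response element in their promoters. Of 43 antiviral effector genes tested, 31 rose and 3 fell (median log2 fold change 0.50). IFIT1 (ENSG00000185745, chromosome 10, 89392546 to 89406486), which binds foreign RNA that lacks the host cap mark, was 47.96, 53.7 and 58.9 CPM in the controls and 183, 189 and 178 in the knockdown libraries (log2 fold change 1.77 with SE 0.07, adjusted p = 4.59e-10). IFIT2 was 69.1, 76.9 and 81.2 CPM in the controls and 215, 221 and 216 in the knockdown libraries (1.52) and IFIT3 was 115, 125 and 133 CPM in the controls and 393, 396 and 395 in the knockdown libraries (1.66). The 3 neighbours of the family rose about alike in all knockdown libraries.

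The promoter of IFIT1 shows the element that the family is known for. In the RefSeq window of 300 bases, from 250 before to 50 after the transcription start (GRCh38.p14, plus strand), the 2 matches to the core of the interferon-stimulated response element (GAAA, 2 free bases, GAAA) are in capitals, here read on the opposite strand, starting 116 and 103 bases before the start site.
IFIT1 chr10:89392373-89392672: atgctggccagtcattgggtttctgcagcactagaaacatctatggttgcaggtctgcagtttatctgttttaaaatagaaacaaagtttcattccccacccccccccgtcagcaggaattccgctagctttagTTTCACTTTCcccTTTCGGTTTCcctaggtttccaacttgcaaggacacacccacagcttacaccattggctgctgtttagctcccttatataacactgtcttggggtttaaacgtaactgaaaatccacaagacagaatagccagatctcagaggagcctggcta
On either strand this core was in 22 of the 32 antiviral promoters found in the table (68.8%), in 14 of the 22 whose genes rose (63.6%), and in 2.92% of the 11546 promoters of tested genes. Whether the antiviral genes that rose hold it at another rate than those that did not was not tested.

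OASL, an OAS relative that enhances RIG-I signalling, was 15.1, 15.97 and 18.2 CPM in the controls and 53.2, 53.3 and 55.0 in the knockdown libraries (log2 fold change 1.71 with SE 0.07, adjusted p = 6.73e-10). ISG20, a nuclease that degrades single-stranded RNA, was 9.92, 9.08 and 7.97 CPM in the controls and 30.9, 31.2 and 29.9 in the knockdown libraries (1.77). OAS3, the synthetase that makes the activator of RNase L, fell, at 79.1, 86.9 and 88.4 CPM in the controls and 63.6, 69.1 and 72.97 in the knockdown libraries (-0.31, adjusted p = 0.000986). ISG15, a ubiquitin-like modifier, was 79.7, 34.6 and 30.9 CPM in the controls and 71.9, 70.3 and 71.8 in the knockdown libraries, where NC replicate 1 matched the knockdown libraries and NC replicates 2 and 3 were far lower (adjusted p = 0.337).

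Of 21 sensors and adaptors of foreign nucleic acid, 11 rose and 2 fell (median 0.15). The second number was 4 in the fit of the 2 groups alone. IFIH1, the sensor MDA5 of long double-stranded RNA, was 16.2, 18.7 and 19.2 CPM in the controls and 39.7, 40.9 and 40.6 in the knockdown libraries (log2 fold change 1.162 with SE 0.08, adjusted p = 6.47e-08). RIGI, which detects 5′-triphosphate RNA, was 165, 178 and 187 CPM in the controls and 265, 266 and 265 in the knockdown libraries (0.59), and STING1, the adaptor of the DNA pathway, was 24.7, 23.1 and 21.6 CPM in the controls and 41.9, 44.3 and 45.2 in the knockdown libraries (0.92). CGAS, the DNA sensor upstream of STING1, fell (-0.34). TLR4, the lipopolysaccharide receptor, rose (0.94). The genes of the 2 RNA sensors thus rose while CGAS was lower.

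Among 24 interferon receptors, STATs and IRFs, 9 rose, with STAT2 (0.43), JAK2 (0.68) and both chains of the interferon-gamma receptor, IFNGR1 (0.38) and IFNGR2 (0.33), as examples. MHC class I and its loading machinery, which interferons also raise, counted 5 higher and 5 lower of 25 (median -0.07). Those numbers were 3 and 9 in the fit of the 2 groups alone, and 3 were lower without NC replicate 2. ERAP2, a peptide-trimming enzyme, rose (0.40), and TAPBP, tapasin, fell (-0.23). HLA class I genes are near-identical to each other, so their counts are uncertain. The interferon genes as a group were therefore not moved in one piece: effectors and RNA sensors rose, and antigen presentation did not share the direction.

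**Figure D4:**
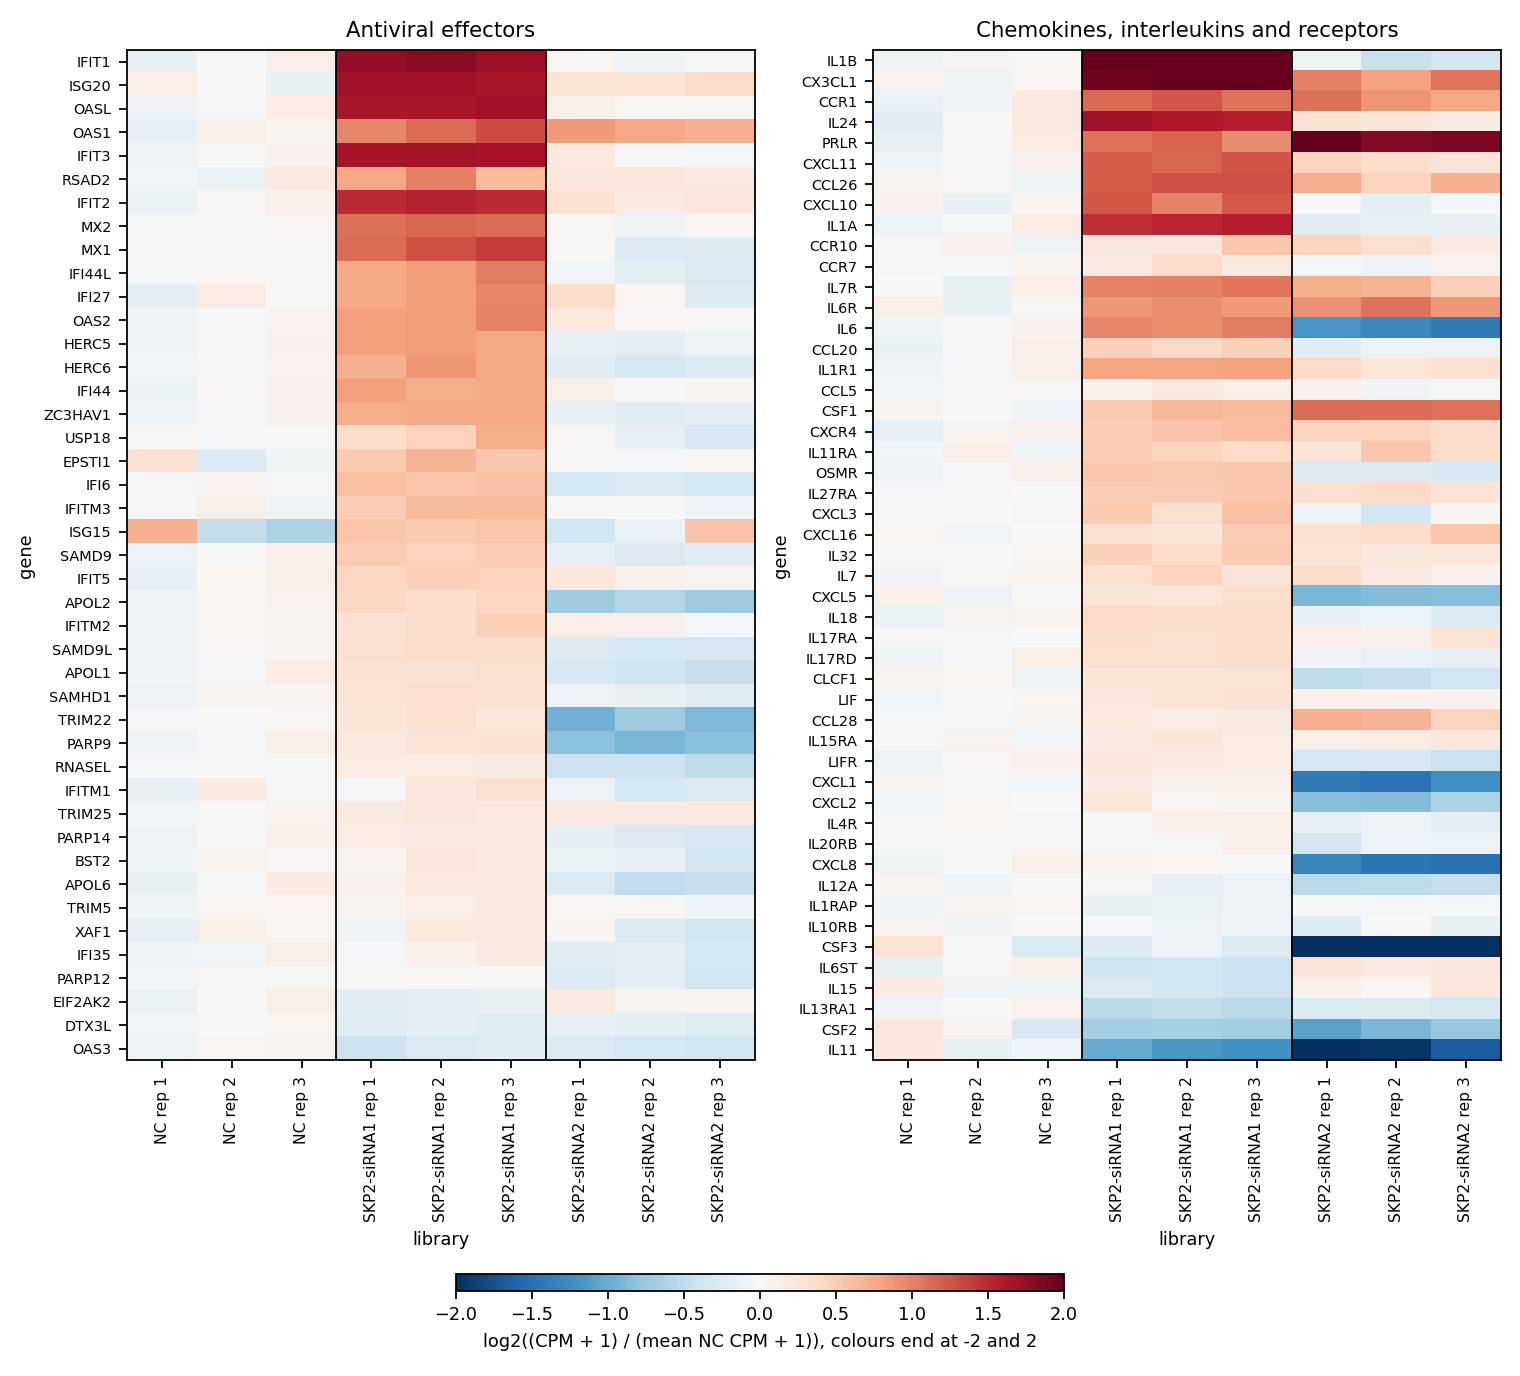
Heat map of log2((CPM + 1)/(mean NC CPM + 1)) in each of the 9 libraries (columns) for antiviral, chemokine and interleukin genes (rows); red is above and blue below the mean of the NC libraries. IFIT1, IFIT2, IFIT3, OASL and IL1B are red in all 3 SKP2-siRNA1 libraries, while in the SKP2-siRNA2 libraries the first 4 are near the control mean and IL1B is below it (log2 fold change -0.42, adjusted p = 0.0234), and ISG15 differs within NC, where replicate 1 stands above replicates 2 and 3.

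Chemokines recruit leukocytes. Of 17 chemokine and chemokine receptor genes, 12 rose and none fell (median 0.77). Most of those that rose were expressed at a low level. CXCL10, an interferon-induced ligand of CXCR3, was 1.24, 0.906 and 1.21 CPM in the controls and 4.01, 3.23 and 3.97 in the knockdown libraries (log2 fold change 1.75 with SE 0.16, adjusted p = 1.24e-06), and CXCL11, which binds the same receptor, was 0.955, 1.02 and 1.18 CPM in the controls and 3.77, 3.61 and 3.91 in the knockdown libraries (1.83). CCL26, eotaxin-3, was 1.43, 1.35 and 1.14 CPM in the controls and 4.31, 4.66 and 4.66 in the knockdown libraries (1.80). The abundant CXCL8, interleukin-8, was 374, 401 and 435 CPM in the controls and 422, 414 and 408 in the knockdown libraries, with overlapping groups (adjusted p = 0.625), and CXCL1 was 145, 137 and 133 CPM in the controls and 155, 149 and 151 in the knockdown libraries (adjusted p = 0.0877). Of the other neutrophil chemokines on the list, added after their values were seen, CXCL2 had a log2 fold change of 0.11, adjusted p = 0.325, CXCL3 of 0.52, adjusted p = 0.00169, and CXCL5 of 0.43, adjusted p = 0.026, a call lost in several alternatives.

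Of 32 interleukin and cytokine receptor genes, 21 rose and 5 fell (median 0.35). IL1A, the other interleukin-1, was 3.71, 3.98 and 4.7 CPM in the controls and 13.1, 13.7 and 14.2 in the knockdown libraries (log2 fold change 1.72 with SE 0.09, adjusted p = 8.61e-09), and its receptor IL1R1 was 41.7, 42.7 and 46.9 CPM in the controls and 76.02, 76.6 and 77.4 in the knockdown libraries (0.81). IL6 (ENSG00000136244, chromosome 7, 22725884 to 22732002), which signals through gp130 to STAT3, was 188, 198 and 211 CPM in the controls and 393, 380.5 and 404 in the knockdown libraries (log2 fold change 0.98 with SE 0.06, adjusted p = 2.78e-08). IL11, a cytokine that also uses gp130, fell, at 155, 121 and 126 CPM in the controls and 65.8, 59.04 and 57.1 in the knockdown libraries (log2 fold change -1.14 with SE 0.13, adjusted p = 0.00025). The interleukin-1 pair and its receptor thus rose together, while the gp130 cytokines IL6 and IL11 moved apart.

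The IL6 promoter carries the NF-kB element through which interleukin-1 is known to act. Its match to this element (GGG, 2 free bases, TTTCC), 73 bases before the start, is in capitals in the RefSeq window of 300 bases (GRCh38.p14, plus strand).
IL6 chr7:22726950-22727249: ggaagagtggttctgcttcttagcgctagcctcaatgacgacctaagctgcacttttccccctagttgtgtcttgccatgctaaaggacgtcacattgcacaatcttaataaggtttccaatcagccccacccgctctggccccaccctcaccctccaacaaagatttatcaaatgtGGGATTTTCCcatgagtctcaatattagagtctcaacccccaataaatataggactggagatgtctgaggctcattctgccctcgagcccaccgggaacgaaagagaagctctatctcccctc
The word was found on either strand in 5 of 12 chemokine promoters and 4 of 24 interleukin promoters, against 2.17% of the promoters of tested genes. IL6, CXCL3, CCL20 (0.83), IL27RA (0.54) and IL32 (0.47) held it and rose, as did CXCL5, whose call was lost in several alternatives. CXCL1, CXCL2 and IL4R held it and did not pass. IL1B, IL1A, IL24, CXCL10, CXCL11 and CCL26 rose and lacked it in this window. Whether the genes that rose hold it at another rate than the others was not tested. The AP-1 word TGANTCA was in 9.62% of the 936 promoters of genes that rose at least 1.5-fold, in 3.07% of the 847 whose genes fell as much and in 4.99% of those of tested genes. These are matches of letters, not bound sites.

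Of 24 ligands and receptors of the tumour necrosis factor superfamily, 13 rose and 1 fell (median 0.34). TNFSF15, which acts on endothelium and T cells, was 102, 111 and 104 CPM in the controls and 460.0, 459 and 436 in the knockdown libraries (log2 fold change 2.10 with SE 0.06, adjusted p = 6.14e-11). TNFRSF21, death receptor 6, was 303, 311 and 310.0 CPM in the controls and 556, 550.5 and 568 in the knockdown libraries (0.86), and TNFRSF11B, the decoy receptor osteoprotegerin, was 6.07, 6.12 and 6.09 CPM in the controls and 14.8, 14.5 and 14.6 in the knockdown libraries (1.27). The TRAIL receptors TNFRSF10A (0.59) and TNFRSF10D, a decoy (0.78), rose as well. CD40 was the member that fell (-0.24), and 2 were lower in several alternatives, among them when NC replicate 1, NC replicate 3 or SKP2-siRNA2 replicate 1 was left out.

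Prostaglandins are made from arachidonic acid by the cyclooxygenases. Of 20 genes of this pathway, 11 rose and 2 fell (median 0.43), the second number being 1 without NC replicate 3 and without SKP2-siRNA1 replicate 1 or 3. PTGS2, the inducible cyclooxygenase, was 26.2, 28.8 and 31.7 CPM in the controls and 74.02, 70.1 and 75.7 in the knockdown libraries (log2 fold change 1.34 with SE 0.07, adjusted p = 6.26e-09), and PTGS1, the constitutive one, was 8.12, 8.66 and 9.07 CPM in the controls and 17.6, 16.9 and 18.8 in the knockdown libraries (1.04). PTGES, the inducible prostaglandin E synthase, rose (0.59), and PTGES3, a synthase that is also the HSP90 partner p23, fell (-0.80). The 18 immune cell markers summed to 6.32 to 6.71 CPM in NC and 9.33 to 10.5 CPM with SKP2-siRNA1, with the 5 markers named above at 0. Of the 5 markers that passed the count filter, 4 rose, among them PTPRC, the common leukocyte antigen, at 0.478, 0.376 and 0.402 CPM in the controls and 1.04, 1.1 and 0.993 in the knockdown libraries (1.32). The part of these markers in the cytokine and prostaglandin results was not tested.

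Growth factor genes showed rises of ligands and of feedback inhibitors. All 15 tested members of the EGF receptor family list passed, 13 higher and 2 lower (median 0.49). The ligands AREG, amphiregulin (72.6, 65.7 and 60.3 CPM in the controls and 133, 123 and 126 in the knockdown libraries, log2 fold change 0.94), TGFA (0.64) and NRG1 (0.48) rose, and EGF itself fell (-0.62). ERRFI1, which binds and inhibits the activated receptor, was 322, 369 and 384 CPM in the controls and 784, 777 and 798 in the knockdown libraries (log2 fold change 1.13 with SE 0.06, adjusted p = 6.90e-09). EGFR, the receptor, was 517, 531 and 549 CPM in the controls and 666, 694 and 674 in the knockdown libraries (0.35, adjusted p = 2.47e-05). AREG, TGFA, NRG1, the receptor EGFR and its inhibitor ERRFI1 therefore rose in the same libraries.

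Of 26 feedback and output genes of the ERK kinase cascade, 14 rose and 3 fell (median 0.34). The number lower was 5 in the fit of the 2 groups alone and without SKP2-siRNA2 replicate 1. SPRY2, Sprouty 2, was 84.98, 85.9 and 80.3 CPM in the controls and 156, 159 and 158 in the knockdown libraries (log2 fold change 0.92 with SE 0.04, adjusted p = 1.83e-09), and DUSP6, the phosphatase of ERK, was 238, 237 and 232 CPM in the controls and 411, 409 and 421 in the knockdown libraries (0.81). SPRED1 (0.64), SPRED3 (0.94) and DUSP10 (0.93) rose, all of them brakes on MAP kinases, and the low-expressed transcription factor EGR3 rose most (1.91). CCND1, cyclin D1, an output that drives G1, fell instead, at 923, 848 and 879 CPM in the controls and 649, 644 and 644 in the knockdown libraries (log2 fold change -0.45 with SE 0.05, adjusted p = 1.02e-05). The brakes and cyclin D1 thus moved apart.

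AP-1 factors lie downstream of this cascade. Of 14, 5 rose and 1 fell (median 0.03), 3 rising in the fit of the 2 groups alone. MAFF (0.42) and the weakly expressed FOSB (0.68) were among the rises, and FOSL1, a FOS protein common in such lines, fell slightly (-0.18).

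Among other receptor tyrosine kinases and their ligands, 9 of 24 genes rose and 4 fell (median 0.12). AXL (ENSG00000167601, chromosome 19, 41219203 to 41261766), a receptor of GAS6 that marks mesenchymal tumour cells, was 1396, 1383 and 1413 CPM in the controls and 627, 633 and 630.0 in the knockdown libraries (log2 fold change -1.15 with SE 0.04, adjusted p = 3.83e-10). MET, the receptor of hepatocyte growth factor, was 325, 342 and 361 CPM in the controls and 203, 202 and 200.4 in the knockdown libraries (log2 fold change -0.77 with SE 0.05, adjusted p = 1.95e-08). Both fell well below their controls, while IGF1R (0.54), the binding protein IGFBP3 (0.74) and PROS1, protein S, a ligand of AXL's relatives (0.72), rose. In the PDGF and VEGF family 8 of 13 rose and 2 fell (median 0.29). The ligands PDGFA (15.6, 14.2 and 15.3 CPM in the controls and 7.92, 7.38 and 7.8 in the knockdown libraries, log2 fold change -0.97) and PDGFB (-1.53) fell, and the receptors KDR (1.04) and NRP1 (0.44) rose. KDR is also 1 of 12 endothelial markers, which summed to 142 to 169.9 CPM in NC and 158 to 163 CPM with SKP2-siRNA1, with 7 below 1 CPM in all 6 libraries and CLDN5 and ERG without a count. Of the 5 tested, 3 were higher and none lower, with PECAM1 at 3.76, 4.09 and 4.23 CPM in the controls and 9.38, 8.46 and 10.1 in the knockdown libraries (1.21) and TIE1 higher as well (0.51). Their part in the rises of VEGF receptors and clotting genes was not tested.

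TGF-beta and its relatives the bone morphogenetic proteins signal through paired receptors to SMAD proteins. Of 40 genes, 18 rose and 4 fell (median 0.17). The latter number was 7 in the fit of the 2 groups alone and without SKP2-siRNA2 replicate 1, and 2 without SKP2-siRNA1 replicate 1. TGFBR2, the type II receptor of TGF-beta, was 499, 545 and 575 CPM in the controls and 971, 999 and 1037 in the knockdown libraries (log2 fold change 0.89 with SE 0.05, adjusted p = 2.56e-08), whereas ACVR2B, an activin receptor, fell from 58.3, 61.4 and 67.7 CPM to 28.9, 30.7 and 28.3 CPM (-1.09). BMP2 rose from a low level (1.71), and SMAD3, the transcription factor that TGF-beta receptors activate, fell (-0.42). Ligand, receptor and transducer therefore differed in direction.

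Of 35 Wnt pathway genes, 10 rose and 4 fell, the first a share close to the background (median 0.09). The Frizzled receptors split: FZD4 was 14.3, 15.6 and 17.1 CPM in the controls and 49.5, 46.3 and 49.9 in the knockdown libraries (log2 fold change 1.63 with SE 0.07, adjusted p = 1.42e-09) and FZD8 was 9.36, 7.16 and 7.36 CPM in the controls and 23.6, 23.7 and 24.6 in the knockdown libraries (1.60), while FZD6 (-0.50) and FZD7 (-0.67) fell. The co-receptor LRP6 rose (0.51). CTNNB1, beta-catenin, did not pass (0.07, adjusted p = 0.194). In the Notch pathway 7 of 21 rose and 2 fell. The receptor NOTCH2 was 558, 573 and 596 CPM in the controls and 293, 308 and 300.1 in the knockdown libraries (log2 fold change -0.94 with SE 0.04, adjusted p = 2.54e-09), against rises of its ligand JAG1 (0.30) and its inhibitor NUMB (0.47).

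Semaphorins, netrins and slits guide axons and also migrating cells. Of 29 ligands and receptors, 16 rose and 3 fell (median 0.41). The repulsive ligands SEMA3A (62.4, 70.7 and 72.3 CPM in the controls and 120.2, 123 and 125 in the knockdown libraries, log2 fold change 0.84) and SLIT2 (0.66) and the SLIT receptor ROBO1 (0.70) rose, and the membrane semaphorin SEMA6B fell, at 69.1, 48.03 and 39.8 CPM in the controls and 23.8, 24.6 and 24.6 in the knockdown libraries (log2 fold change -1.10 with SE 0.26, adjusted p = 0.0123).

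The broadest falls outside the cell cycle were in nuclear and RNA-processing genes. The spliceosome removes introns, and SR proteins and hnRNPs decide which exons it joins. Of 52 SR protein and hnRNP genes, 35 fell and 5 rose (median log2 fold change -0.33). The number that rose was 2 in the fit of the 2 groups alone and 3 when NC replicate 1 or 2 or any 1 SKP2-siRNA1 library was left out. Of 43 core spliceosome genes, 31 fell and none rose (median -0.29). SRSF1, the archetypal SR protein, was 319, 299 and 288 CPM in the controls and 186, 176 and 179 in the knockdown libraries (log2 fold change -0.74 with SE 0.05, adjusted p = 9.81e-08), and TRA2B was 220.0, 225 and 228 CPM in the controls and 153, 151 and 155 in the knockdown libraries (-0.55). SF3B2, of the U2 particle, was 331, 336 and 317 CPM in the controls and 245, 244 and 239 in the knockdown libraries (-0.44). The changes were small for each gene but the groups stood apart, and they ran in one direction through most of the machinery.

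Not all splicing regulators fell: CELF2, which is best known from muscle, heart and brain, was 38.3, 45.6 and 45.6 CPM in the controls and 70.01, 68.95 and 68.6 in the knockdown libraries (log2 fold change 0.68 with SE 0.06, adjusted p = 1.38e-06). After genes whose 3′UTR held either heptamer were set aside, 19 of the 31 remaining SR protein and hnRNP genes were lower (median -0.32), as were 25 of 36 spliceosome genes (median -0.27). Over all genes tested, 2290 of the 13716 that remained were lower (median 0.04).

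Nuclear pores and transport receptors carry RNA and protein across the nuclear envelope. Of 55 such genes, 43 fell and 5 rose (median -0.33). The number that rose was 3 in the fit of the 2 groups alone and when replicate 1 of either group was left out, and 2 without SKP2-siRNA1 replicate 2. NUP50 was 126, 135 and 143 CPM in the controls and 74.5, 74.8 and 71.6 in the knockdown libraries (log2 fold change -0.87 with SE 0.05, adjusted p = 1.48e-08), and NDC1, which anchors the pore in the membrane, was 172, 181 and 194 CPM in the controls and 104, 106 and 103 in the knockdown libraries (-0.81). KPNA2, importin alpha-1, fell (-0.83), and its relative KPNA5 rose (0.46). Of 20 genes of the lamina and envelope, 13 fell (median -0.18), a number that was 8 without SKP2-siRNA1 replicate 3. LMNB1, lamin B1, was 188, 210.4 and 220.0 CPM in the controls and 103, 100.5 and 103 in the knockdown libraries (log2 fold change -1.01 with SE 0.06, adjusted p = 1.17e-08), and LBR, the lamin B receptor, was 286, 311 and 329 CPM in the controls and 123, 118 and 118 in the knockdown libraries (-1.37). SYNE1, nesprin-1 of the outer membrane, rose (0.64). Several of these genes, KPNA2 and LMNB1 among them, are known to vary through the cell cycle, and the part of that in their falls was not tested.

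DNA methylation and Polycomb genes silence chromatin. Of 36, 14 fell and 4 rose (median -0.10), 7 rising without NC replicate 3. EZH2, the methyltransferase of Polycomb complex 2, was 86.7, 93.2 and 95.7 CPM in the controls and 49.4, 47.8 and 46.1 in the knockdown libraries (log2 fold change -0.94 with SE 0.05, adjusted p = 9.51e-09), and its partner SUZ12 (-0.52) and cofactor PHF19 (-1.11) fell with it. DNMT1, which copies DNA methylation after replication, was 478, 438 and 418 CPM in the controls and 237, 235 and 229.9 in the knockdown libraries (-0.93). JARID2, another cofactor of the complex, rose (0.32), and HDAC2, a histone deacetylase, fell (-0.26).

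**Figure D5:**
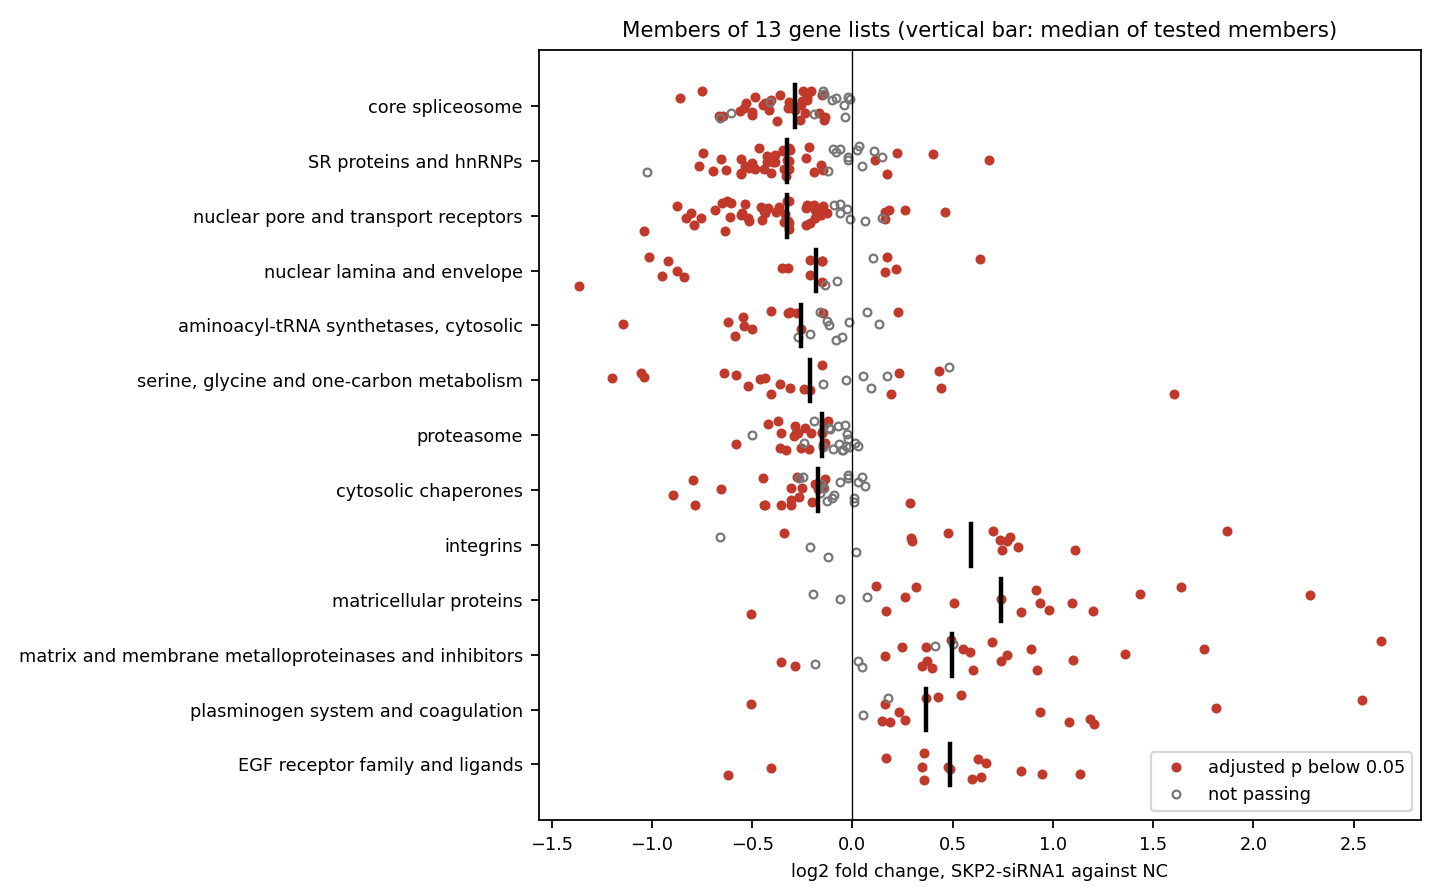
Log2 fold change of SKP2-siRNA1 against NC for every tested member of 13 gene lists; each point is 1 gene and the bar is the median of the list. Matricellular proteins and integrins lie mostly above 0 (medians 0.74 and 0.59), and core spliceosome and nuclear pore genes mostly below (medians -0.29 and -0.33).

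Genes of protein synthesis and turnover fell more often than they rose. Of 23 cytosolic aminoacyl-tRNA synthetase genes, 12 fell (median -0.26). IARS1, the isoleucine enzyme, was 498, 548 and 591 CPM in the controls and 242, 248 and 250.9 in the knockdown libraries (log2 fold change -1.14 with SE 0.06, adjusted p = 8.78e-09). Of 40 initiation factor genes, 14 fell (median -0.13), a number that was 26 when NC replicate 1 was left out and 25 when SKP2-siRNA2 replicate 1 was. EIF4E, which binds the mRNA cap, was 76.3, 85.4 and 86.3 CPM in the controls and 55.9, 54.5 and 54.3 in the knockdown libraries (log2 fold change -0.59 with SE 0.06, adjusted p = 2.44e-06). Its inhibitors fell as well, EIF4EBP1 at 35.1, 31.8 and 32.8 CPM in the controls and 13.4, 13.8 and 15.03 in the knockdown libraries (-1.24) and EIF4EBP2 at 255, 279 and 301 CPM in the controls and 157, 157 and 161 in the knockdown libraries (-0.81). The cap-binding factor and its inhibitors thus moved in the same direction. EIF2S2, a subunit of the factor that brings the initiator tRNA, fell (-0.78).

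Of 38 proteasome genes, 20 fell and none rose (median -0.15), and 32 were lower with NC replicate 1 and SKP2-siRNA2 replicate 3 both left out. PSMD2, of the regulatory particle, was 697, 694 and 738 CPM in the controls and 554, 540.4 and 555 in the knockdown libraries (log2 fold change -0.37 with SE 0.04, adjusted p = 1.34e-05). Of 37 cytosolic chaperone genes, 20 fell (median -0.17). CCT6A, of the ring that folds actin and tubulin, was 405, 382 and 401 CPM in the controls and 231, 228 and 226 in the knockdown libraries (log2 fold change -0.79 with SE 0.05, adjusted p = 4.44e-08), and TCP1, of the same ring, fell by less (-0.43).

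SKP2's own ligase family showed no common direction: of 37 SCF, cullin and F-box genes, 12 rose and 12 fell. The number that rose was 7 in the fit of the 2 groups alone and without SKP2-siRNA1 replicate 1. CKS1B, the small protein that SKP2 needs to hold p27, was 104, 109.8 and 117 CPM in the controls and 60.2, 58.8 and 60.3 in the knockdown libraries (log2 fold change -0.89 with SE 0.05, adjusted p = 2.95e-08). FBXO5 (-0.93) and CCNF (-1.52), F-box proteins of the cell cycle, fell. FBXO32, atrogin-1, a ligase subunit of muscle wasting, rose, at 49.4, 48.98 and 47.8 CPM in the controls and 84.7, 84.7 and 87.3 in the knockdown libraries (0.81). Of 26 transcripts of SKP2 substrates and regulators, 13 fell and 3 rose (median -0.25), 6 rising with NC replicate 1 and SKP2-siRNA2 replicate 3 both left out. Those that fell included CCNA2 (-1.31), ORC1 (-1.18) and BRCA2 (-0.96), which are themselves replication genes. CCNE1, cyclin E1, fell, at 17.0, 16.7 and 19.1 CPM in the controls and 9.59, 9.43 and 10.1 in the knockdown libraries (-0.86), and TOB1, an antiproliferative protein, rose, at 18.2, 19.02 and 19.4 CPM in the controls and 26.97, 26.03 and 25.8 in the knockdown libraries (0.48). CDKN1B, which encodes p27, was 70.4, 61.1 and 61.97 CPM in the controls and 61.4, 60.7 and 63.8 in the knockdown libraries, with overlapping groups (adjusted p = 0.527). These are transcripts, whereas the ligase acts on proteins, whose levels are outside these data.

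Serine, glycine and one-carbon metabolism supplies units for nucleotides and methylation. Of 25 genes, 14 fell and 5 rose (median -0.21). All 3 enzymes that make serine fell. PHGDH, the first, was 38.7, 39.4 and 38.7 CPM in the controls and 19.05, 18.9 and 18.8 in the knockdown libraries (log2 fold change -1.04 with SE 0.05, adjusted p = 2.74e-09). PSAT1, the second, was 157, 167 and 170.0 CPM in the controls and 73.4, 69.2 and 73.01 in the knockdown libraries (log2 fold change -1.20 with SE 0.05, adjusted p = 2.06e-09), and PSPH, the last, fell by less (-0.52). MAT2B, the regulatory subunit of S-adenosylmethionine synthesis, was 104, 116 and 119 CPM in the controls and 56.8, 53.3 and 53.2 in the knockdown libraries (-1.06). The folate receptor FOLR1 rose from a low level (1.60).

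Mitochondrial fuel genes changed one by one. Of 34 genes of fatty acid oxidation, 15 rose and 5 fell (median 0.07), the second number being 8 without NC replicate 1. The smallest adjusted p-values belonged to falls of successive mitochondrial enzymes of the same spiral, ECHS1 at 111, 103 and 105 CPM in the controls and 49.3, 49.02 and 48.3 in the knockdown libraries (log2 fold change -1.12 with SE 0.05, adjusted p = 2.59e-09) and HADH at 53.1, 53.9 and 53.2 CPM in the controls and 32.7, 30.3 and 30.7 in the knockdown libraries (-0.77). The carnitine carrier SLC25A20 (0.53), the regulator PPARA (0.55) and the peroxisomal oxidase ACOX2 (1.18) rose. Of 33 genes of the TCA cycle and pyruvate entry, 6 rose and 9 fell. These numbers were 3 and 15 in the fit of the 2 groups alone, 3 rose without SKP2-siRNA1 replicate 2, and 5 fell when any 1 SKP2-siRNA1 library was left out. FH, fumarate hydratase, was 103, 100.5 and 106 CPM in the controls and 71.3, 65.98 and 66.2 in the knockdown libraries (log2 fold change -0.61 with SE 0.05, adjusted p = 5.02e-07), and PDHX, of the pyruvate dehydrogenase complex, was 56.5, 60.7 and 66.4 CPM in the controls and 38.1, 35.4 and 34.1 in the knockdown libraries (-0.77). PDK4 (0.72) and PDK1 (0.45), kinases that inhibit that complex, rose.

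In lipid synthesis and storage 11 of 30 genes rose and 9 fell (median 0.05). DGAT2, which makes triglyceride, was 8.23, 8.06 and 8.71 CPM in the controls and 18.7, 19.4 and 19.9 in the knockdown libraries (log2 fold change 1.21 with SE 0.07, adjusted p = 8.26e-09), and PLIN2, which coats lipid droplets, was 82.6, 89.9 and 98.8 CPM in the controls and 150.0, 141 and 156 in the knockdown libraries (0.72). The elongase ELOVL7 (-1.29) and the desaturase FADS1 (-0.49) fell. Of 35 sphingolipid genes, 16 rose and 6 fell (median 0.12), with SGMS2, a sphingomyelin synthase (61.9, 69.7 and 70.3 CPM in the controls and 142, 139.8 and 139 in the knockdown libraries, log2 fold change 1.06), rising and CERS6, a ceramide synthase (-0.63), falling.

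Among carriers, SLC7A1, the main arginine and lysine transporter, was 291, 305 and 309.9 CPM in the controls and 109, 111 and 109 in the knockdown libraries (log2 fold change -1.46 with SE 0.04, adjusted p = 5.96e-11), the strongest change of 26 amino acid transporter genes, of which 6 rose and 7 fell. SLC6A6, the taurine transporter, rose (0.66). Of 21 glucose and monocarboxylate carriers 6 rose, with SLC2A3, the high-affinity glucose transporter GLUT3, at 52.4, 56.1 and 61.1 CPM in the controls and 84.5, 84.4 and 87.9 in the knockdown libraries (0.60). SLC2A1, the GLUT1 gene, was 435, 425 and 419 CPM in the controls and 439, 456 and 444 in the knockdown libraries, which did not pass (adjusted p = 0.212). In polyamine metabolism 4 of 18 rose and 6 fell: SAT1, which starts polyamine breakdown, rose (88.9, 98.4 and 100.8 CPM in the controls and 159.7, 161 and 157 in the knockdown libraries, log2 fold change 0.73), and SMS, which makes spermine, fell (-0.46).

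Of 49 actin and contractility genes, 8 rose and 16 fell (median -0.03). MYH9 was 2931, 2594 and 2418 CPM in the controls and 1544, 1619 and 1566 in the knockdown libraries (log2 fold change -0.75 with SE 0.07, adjusted p = 2.08e-06), and MYH10, the IIB heavy chain, was 159, 163 and 160.3 CPM in the controls and 86.6, 85.02 and 79.1 in the knockdown libraries (-0.95). EZR, ezrin, which ties actin to the membrane, fell (-0.92), and the formin FMNL2 rose (0.79). Of 36 tubulin and microtubule genes, 8 rose and 14 fell. TUBB4B fell (-0.75) and TUBA1A, the neuronal alpha-tubulin, rose, at 159, 174 and 176 CPM in the controls and 267, 268 and 277 in the knockdown libraries (log2 fold change 0.68 with SE 0.05, adjusted p = 1.04e-07), with the same uncertainty of near-identical copies as TUBA1B.

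Calcium-binding S100 proteins rose nearly throughout: 9 of 10 were higher and none lower, 1 being lower without NC replicate 1 (median 0.31). S100A6 was 1593, 1785 and 1748 CPM in the controls and 2858, 2730.3 and 2749.7 in the knockdown libraries (log2 fold change 0.70 with SE 0.05, adjusted p = 1.81e-07), S100A2 was 37.0, 44.3 and 46.1 CPM in the controls and 73.9, 66.1 and 68.3 in the knockdown libraries (0.71) and S100A11 was 299.6, 279 and 274 CPM in the controls and 349, 340.2 and 362 in the knockdown libraries (0.30). The rises were modest in size and the libraries of each group lay close together. In the secretory pathway 20 of 46 genes rose and 6 fell (median 0.11). KDELR3, a receptor that returns chaperones to the endoplasmic reticulum, was 23.1, 21.5 and 23.4 CPM in the controls and 36.9, 37.4 and 36.3 in the knockdown libraries (0.70), and SEC24A, a coat protein that picks cargo for export, was 53.8, 55.2 and 58.6 CPM in the controls and 91.4, 98.3 and 97.3 in the knockdown libraries (0.78).

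Apoptosis genes split: of 32, 10 rose and 8 fell (median -0.02). MCL1, a survival member of the BCL2 family, was 381, 407 and 424 CPM in the controls and 614, 622 and 629 in the knockdown libraries (log2 fold change 0.62 with SE 0.05, adjusted p = 2.07e-07). CASP1, the protease that matures interleukin-1 beta, rose, at 4.19, 3.67 and 3.85 CPM in the controls and 6.34, 6.1 and 6.2 in the knockdown libraries (0.67), and CASP2 fell, at 38.7, 41.03 and 43.5 CPM in the controls and 32.6, 31.2 and 31.1 in the knockdown libraries (-0.38). BIK, a pro-apoptotic member, rose (1.05).

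Of 2190 long noncoding RNA genes tested, 290 were higher and 260 lower, both shares below the background of 25% and 20.5%. By the same rule as the top genes, the largest rises were LINC02009 (5.9, 6.05 and 6.34 CPM in the controls and 18.1, 16.4 and 15.8 in the knockdown libraries, log2 fold change 1.46), LINC00996 (1.28), LINC01293 (1.24), TLR8-AS1 (1.21) and LYPLAL1-DT (1.07). The largest falls were LINC01224 (25.4, 27.2 and 26.4 CPM in the controls and 11.03, 10.6 and 10.05 in the knockdown libraries, log2 fold change -1.32), MIR924HG (-1.30), TMPO-AS1 (-1.28), ZMPSTE24-DT (-1.27) and ZNF674-AS1 (-1.14). The strand used in counting is not given in the sources used here, so reads of TLR8-AS1, TMPO-AS1 and ZNF674-AS1 cannot be told from those of the genes they overlap. TMPO, which lies beside TMPO-AS1, fell too (-0.95, adjusted p = 1.14e-08).

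The second siRNA lowered the same target, and its libraries were set beside those of SKP2-siRNA1. The NC libraries serve as control for each siRNA, so changes against NC are given side by side and the test is the direct one between the siRNAs. In that test 8365 of 16575 genes (50.5%) differed, 4190 higher with SKP2-siRNA1 (25.3%) and 4175 lower (25.2%). SKP2 was 6.09, 5.69 and 6.1 CPM with SKP2-siRNA2, so that SKP2-siRNA1 left less of it (log2 difference -0.73, adjusted p = 6.46e-06). The siRNAs therefore differed in the residual target by less than 2-fold and in the level of about as many genes as either did from the control, since 49.4% passed with SKP2-siRNA2.

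The naming conditions, which include passing with SKP2-siRNA1, were met by 5855 protein-coding genes. Of these, 1517 differed between the siRNAs in the same direction and did not pass with SKP2-siRNA2, 763 higher and 754 lower. MMP1 was the largest of these rises: with SKP2-siRNA2 it was 19.1, 17.5 and 19.5 CPM, close to the control level, and the siRNAs differed by 2.77 (SE 0.07, adjusted p = 1.98e-11). TNFSF15 was 106, 124 and 109.8 CPM with SKP2-siRNA2 (difference 2.00), IFIT1 was 55.3, 50.6 and 52.99 CPM (difference 1.79) and IL1A was 3.43, 3.63 and 3.64 CPM (difference 1.94). SERPIND1, MUC5AC, IL24 and CXCL10 were the others. For none of these genes did SKP2-siRNA2 pass the threshold, which the rule required.

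The largest falls of this kind were CBX5, at 289.6, 289 and 271 CPM with SKP2-siRNA2 (difference -1.95, adjusted p = 3.50e-11), EHD1 (-2.35), NEURL1B (-1.70), PKN3, a protein kinase (-1.65), NDUFA5, of respiratory complex I (-1.60), POC1B, a centriole protein (-1.25), IRAK1, a kinase of interleukin-1 signalling (-1.65), and PER3, a clock gene (-1.27). Of these 8 falls, 6 held at least 1 of the heptamers and 4 the octamer shown above, against 0 and 0 of the 7 rises with such a 3′UTR. The shares over all 11269 genes were 25.4% and 4.44%. The words were picked by the log2 fold changes of SKP2-siRNA1 against NC, by which these genes were ranked too. An excess of the words in falls over rises was thus favoured by the choice itself, and the counts are a description with no test. CBX5, EHD1 and NEURL1B had also been counted among the largest falls above. The 3′UTRs were 312 (PKN3) to 10815 bases (CBX5) long in the falls and 436 (MUC5AC) to 5817 bases (TNFSF15) in the rises. The abundant genes showed no such contrast: 4 of the 6 rises held a heptamer and 1 the octamer, as did 4 and 1 of the 6 falls. Not every top fall was of this kind: CAPZA1 was 284, 259.7 and 263 CPM with the second siRNA (-0.40 against NC, adjusted p = 9.33e-05), and the siRNAs differed by -2.12. GLO1 was 299, 315 and 345 CPM (0.21 against NC), a difference of -2.23.

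Whole lists differed between the siRNAs as well. With SKP2-siRNA2 against NC, where 25.2% of all genes were higher and 24.1% lower, 4 of the 43 antiviral genes were higher and 19 lower, and in the direct test 36 were higher with SKP2-siRNA1 than with SKP2-siRNA2 and 1 lower. Integrins counted 3 higher and 5 lower with SKP2-siRNA2, with 9 higher and 3 lower in the direct test. Of 43 core spliceosome genes, 2 were higher and 16 lower with SKP2-siRNA2 against NC. The direct test gave 6 higher and 21 lower with SKP2-siRNA1. Nuclear pore genes counted 7 higher and 35 lower of 55 with SKP2-siRNA2 (median -0.24), with 12 higher and 25 lower in the direct test. Most nuclear pore genes were thus lower than in NC with either siRNA.

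A further 1009 of the same 5855 protein-coding genes passed with both siRNAs in opposite directions and differed between them. Of these, 686 were higher with SKP2-siRNA1 and 323 lower. The number that passed with both siRNAs in the same direction is not given here. IL6 was 86.9, 80.6 and 74.2 CPM with SKP2-siRNA2, below every control library, while it rose with SKP2-siRNA1 (difference 2.29, SE 0.06, adjusted p = 2.64e-11). C3 was 10.4, 9.27 and 10.97 CPM with SKP2-siRNA2 (difference 2.61, adjusted p = 1.01e-11). The remaining genes chosen by the rule were S100P, a calcium-binding protein of tumours (1.14 with SKP2-siRNA1 and -1.06 with SKP2-siRNA2), RORA, a nuclear receptor of the clock (1.01 and -1.05), NDRG4 (0.99 and -1.17) and PRSS2, a trypsinogen with near-identical copies whose counts are uncertain (0.96 and -1.55). For IL6 and C3 the control libraries lay between the 2 knockdown groups without overlap.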

How the data were processed

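Per the labels' protocols, the RNA of 9 MDA-MB-231 samples, 3 per siRNA, was purified on RNeasy columns (mini kit) with a DNase I step. The authors deposited unnormalized read counts, 1 value per Ensembl gene. The submitters' processing notes list STAR, HTSeq 0.6.1, DESeq2 1.16.1, Trim Galore 0.4.1 and FastQC 0.11.2; build, annotation and strand are not given in the sources used here. Reads in several genes (3.87% to 3.97%) or in none (5.34% to 5.92%) were left out of the totals.

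Of 58395 gene identifiers, 57754 took a symbol from the supplied table and 521 from GENCODE 29, and 58275 took coordinates (GRCh38). Genes kept by filterByExpr (count 10, total 15) were scaled by TMM and fitted with edgeR 4.0.16 (R 4.3.3), by robust quasi-likelihood over all 9 libraries with group as the only term. Tests were two-sided, and adjustment was by Benjamini-Hochberg at 0.05. The SE of a log2 fold change was taken as its size over the root of F. The scripts were tested on simulated data.

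The members, the 67 gene lists (1920 entries, 1726 tested) and the words in the 3′UTRs were chosen with earlier results of these data known. Genes named by rank needed an adjusted p below 0.05, groups that did not overlap and a place outside the cell cycle list. Members named as changed from the gene lists needed the adjusted p alone, and some of them are cell cycle genes. Top genes also needed a protein-coding annotation and a mean of at least 2 CPM; the 15 largest rises and falls, and the 6 most abundant of each with a change of 1.5-fold, were taken. From each list came the 5 members with the smallest adjusted p, the largest rise and the largest fall, and members that did not pass, given by their values. Promoter windows came from RefSeq (GRCh38.p14), with 11546 of 16575 tested genes matched by Ensembl identifier or, where that failed, by symbol. Lists carry no test of their own. Some of these lists and genes are not reported here. Alternatives were other scalings and filters, DESeq2 1.42.0, the 2 groups alone, a replicate block and leaving out libraries. Replicate numbers were not taken as pairs.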

Additional observations from a re-analysis of the deposited data

Results flagged for a closer look

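The 6 genes below passed the threshold in opposite directions with the 2 siRNAs, and the direct test between the siRNAs passed as well. The value given is the log2 difference, SKP2-siRNA1 minus SKP2-siRNA2, with the adjusted p of edgeR's quasi-likelihood test. S100P differed by 2.20 (adjusted p = 2.62e-07), with 4.01, 3.33 and 4.31 CPM with SKP2-siRNA1, 0.912, 0.657 and 0.964 CPM with SKP2-siRNA2 and 1.43, 1.9 and 1.92 CPM in NC. RORA differed by 2.06 (adjusted p = 4.93e-08), with 5.7, 5.89 and 5.27 CPM with SKP2-siRNA1 and 1.5, 1.04 and 1.48 CPM with SKP2-siRNA2. NDRG4 differed by 2.16 (adjusted p = 1.74e-09), from 6.67, 6.3 and 6.93 CPM with SKP2-siRNA1 to 1.43, 1.43 and 1.58 CPM with SKP2-siRNA2. IL6 differed by 2.29 (adjusted p = 2.64e-11), PRSS2 by 2.52 (adjusted p = 1.20e-10) and C3 by 2.61 (adjusted p = 1.01e-11). In each of the 6 the level was higher with SKP2-siRNA1 in 3 of 3 libraries than in NC and lower with SKP2-siRNA2 in 3 of 3.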

How the results depend on the processing

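Across 17 alternatives the number of genes higher with SKP2-siRNA1 ran from 3341 (2 groups alone) to 4464 (leaving out NC replicate 1 together with SKP2-siRNA2 replicate 3), and the number lower from 2911 (without SKP2-siRNA1 replicate 3) to 4291 (without both libraries). Leaving out single libraries gave 3518 to 4254 higher and 2911 to 4023 lower. DESeq2 gave 3500 and 3337. The number of genes at least 2-fold higher, 494, became 278 with a filter of at least 1 CPM in 3 libraries. The share of calls that were higher, 55%, was 44% with the 2 groups alone, 48.7% with the CPM filter, 49.2% without SKP2-siRNA2 replicate 1 and 50.4% without NC replicate 1. SLC39A7 passed nowhere and its log2 fold change turned negative with RLE scaling (-0.0142), the CPM filter (-0.0303), the 2 groups alone (-0.0642), DESeq2 (-0.0142) and both libraries left out (-0.015), and ran from -0.0314 (without SKP2-siRNA2 replicate 1) to 0.0242 (without NC replicate 2) over the single libraries left out. Of 411 named genes, 22 lost their call in at least 1 alternative; they are not named as changed here except COL15A1, C5 and CXCL5, whose loss is stated. Of 136 list counts, 40 moved by more than 1.5 times in at least 1 alternative. Of 68 list medians, 55 moved by more than the spread between replicates in at least 1 alternative, 43 of them with the 2 groups alone and 27 without NC replicate 1. The replicate block, on numbers that share only a name (correlations of same-numbered deviations 0.033, 0.006 and 0.055 between NC and SKP2-siRNA1), gave 3763 higher and 3055 lower; with at least 2-fold it gave 483 and 470, and between the siRNAs 3823 and 3677. The sources of these shifts were not tested. Genes of a few CPM in the control, such as CCR1, ITGB7 or LAMA1, rest on fewer reads than the others.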

Other observations

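Other gene families are given here by the same counts, SKP2-siRNA1 against NC, beside the same background of 25% higher and 20.5% lower, which some of them did not exceed. Of 20 circadian clock genes, 9 rose and 7 fell. CLOCK, which opens the daily cycle of transcription with BMAL1, was 127, 134 and 144 CPM in the controls and 63.7, 60.5 and 58.8 in the knockdown libraries (log2 fold change -1.15 with SE 0.05, adjusted p = 2.47e-09), and BMAL1 had a log2 fold change of 0.53 (adjusted p = 1.39e-05). PER3, a repressor of the pair, was 21.9, 21.03 and 21.4 CPM in the controls and 8.65, 8.2 and 9.2 in the knockdown libraries (-1.30, adjusted p = 3.62e-09), and NPAS2, a relative of CLOCK, had a log2 fold change of 0.66. The clock genes thus moved in both directions.

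ABC transporters, pumps for lipids and drugs, rose in 11 of 24 cases and fell in 2, or in 4 in the fit of the 2 groups alone. ABCG2, a drug efflux pump, was 13.3, 14.7 and 15.2 CPM in the controls and 33.1, 33.6 and 33.3 in the knockdown libraries (1.21, adjusted p = 5.53e-09), and ABCC3 was 99.8, 100.5 and 101.1 CPM in the controls and 168, 176 and 174 in the knockdown libraries (0.78, adjusted p = 2.28e-08). Of 34 ubiquitin-conjugating enzymes, 12 rose and 6 fell, the second number being 11 in the fit of the 2 groups alone and 10 without NC replicate 1. UBE2C and UBE2S, which serve the anaphase-promoting complex, fell (-1.55 and -1.21), and UBE2H was 137, 156 and 158 CPM in the controls and 227, 224 and 229 in the knockdown libraries (0.59, adjusted p = 1.20e-06). Of 45 genes of N-glycosylation, 10 rose and 10 fell, shares near the background. Of these, ALG9, a mannosyltransferase, was 26.2, 27.04 and 28.9 CPM in the controls and 11.4, 11.1 and 11.3 in the knockdown libraries (-1.28, adjusted p = 1.31e-08), and ST3GAL1, a sialyltransferase, was 77.8, 86.7 and 87.9 CPM in the controls and 146, 159 and 157 in the knockdown libraries (0.87, adjusted p = 3.35e-08). Calcium channels and pumps rose in 12 of 32 cases and fell in 4, or in 9 in the fit of the 2 groups alone, with ITPR1, the calcium release channel, at 33.6, 39.3 and 40.02 CPM in the controls and 57.02, 55.8 and 57.3 in the knockdown libraries (0.59, adjusted p = 7.14e-06). Of 16 ephrins and Eph receptors, 3 rose and 1 fell, both shares below the background. The first number was 5 without NC replicate 1, and the second 2 with RLE scaling and 3 without NC replicate 3. EPHA4 had the largest change, at 17.2, 17.2 and 17.0 CPM in the controls and 47.9, 45.7 and 43.98 in the knockdown libraries (1.42, adjusted p = 8.63e-10).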
